A study of Mus musculus with 768 samples.

Results

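The control luminal progenitor and alveolar cells were 64.97% of the cells kept on the control plate (95% Clopper-Pearson interval 59.6% to 70.1%), and 86.98% of its 384 wells were kept. Counted by blocks of 6 well columns, they were 49 of 85 kept cells in well columns 1 to 6, 56 of 90 in columns 7 to 12, 58 of 81 in columns 13 to 18 and 54 of 78 in columns 19 to 24. They were chosen by their own measured levels. A well was kept with at least 50000 reads and 1000 genes, and a member had Krt8 at 10 reads per 1000000 reads of the cell (CPM) or more together with at least 2 of Kit, Elf5, Aldh1a3 and Ltf at 10 CPM or more. It also had fewer than 3 of the 7 hormone-sensing genes Prlr, Foxa1, Wnt4, Pgr, Esr1, Cited1 and Areg at 10 CPM and fewer than 3 of the 5 leukocyte genes Ptprc, Cd53, Arhgdib, Coro1a and Laptm5 at 20 CPM. At the edge of the rule, the second-highest progenitor marker stood at 11.2 and 11.8 CPM in the 2 nearest cells inside and at 9.90 and 9.40 CPM in the 2 nearest outside, and Krt8 at 10.3 CPM inside and 9.97 CPM outside. All levels of these 17 genes, and every gene's difference between members and the other cells of the plate, come from the cells the rule sorted, so they are given as a description without a test.

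The study profiled single cells of the mouse mammary gland by Smart-Seq2, a full-length single-cell RNA-seq method without molecular identifiers. There were 2 plates of 384 wells, each from one genotype on C57BL/6: WAP-CRE; R26-N1ICD-EGFP on one, and the control WAP-CRE; R26-tdTomato on the other. Both genotypes carry Cre under the promoter of Wap, the whey acidic protein gene of milk, so the recombined cells are those in which that promoter has been active, and their descendants. In the first genotype Cre switches on the intracellular domain of Notch1 with EGFP from the Rosa26 locus, and in the control it switches on the red reporter tdTomato there. The glands were inguinal, and the design text ties them to lactation and to 3-4 months, without making clear whether the months are an age, a duration or a time since; GFP- or tdTomato-positive cells were sorted singly. No age is given in the sources used here, and none names the animals behind a plate, so each plate counts as 1 sample. Cells of one plate are not replicates of a condition, no difference below has a replicate check, and the intervals cover counting error only, in reads that PCR has copied and that are not independent molecules.

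Luminal progenitors are the Kit-positive, hormone-receptor-negative cells of the inner mammary epithelium, and the alveolar cells that make milk arise from them under prolactin, which acts through Jak2 and Stat5. Elf5 is an Ets factor of this alveolar branch, Kit a receptor tyrosine kinase, Aldh1a3 an enzyme that makes retinoic acid, Ltf the iron-binding milk protein lactoferrin, and Krt8 a keratin of luminal cells. The other luminal branch, the hormone-sensing cells, carries the oestrogen, progesterone and prolactin receptors and signals to its neighbours.

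Members had 53712 to 552106 reads each (median 220626), against a median of 279066 in the other kept control cells. Those other cells were 71 hormone-sensing cells, with at least 3 of the 7 hormone-sensing genes, 24 leukocytes and 22 remaining cells, of which 11 had basal genes at 100 CPM or more in sum. Leukocytes had a median of 207726 reads and hormone-sensing cells of 313835. The median member had reads on 3456 genes (2979 after every cell was thinned to 50000 reads), against 5399 (4469) in hormone-sensing cells. The 10 genes with most reads took 14.2% of member reads, against 10.2% in hormone-sensing cells. Members were 60% of the kept cells in well columns 1 to 12 and 70.4% in columns 13 to 24.

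The levels of the defining markers are given as a description. The rule chose the members by these genes, so the levels are no check of the label. All of Kit, Elf5, Aldh1a3 and Ltf reached 10 CPM in 62.21% of members, 3 of them in 63 members and 2 of them in 19. Kit stood at 0, 635 and 5883 CPM in the lowest, median and highest member, against 0, 0 and 1205 CPM in hormone-sensing cells. Elf5 stood at 0, 152.4 and 1594 CPM in members and at 0, 0 and 615 CPM in hormone-sensing cells, and Aldh1a3 at 0, 615 and 5072 CPM in members and 0, 0 and 4658 CPM in hormone-sensing cells. The ranges overlapped for each of the 3, while the medians of the hormone-sensing cells were all at 0. Kit had a read in 93.5% of members and 16.9% of hormone-sensing cells, Elf5 in 92.6% and 45.1%, and Aldh1a3 in 79.3% and 23.9%.

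Ltf stood at 0, 8933 and 62266 CPM in members and at 0, 8.31 and 36085 CPM in hormone-sensing cells. The line of 10 CPM lies near the medians of other classes, 8.31 CPM in hormone-sensing cells and 10.2 CPM in leukocytes. A Ltf value just past it thus says little about which class a cell is in. A Ltf read was found in 99.5% of members and 97.2% of hormone-sensing cells as deposited, and in 94.01% of members and 46.5% of hormone-sensing cells at 50000 reads per cell. Without Ltf in the rule the members were 60.48% of kept control cells. Krt8 was lower in members, with 10.3, 514 and 3586 CPM, than in hormone-sensing cells, with 0, 1551 and 4418 CPM. Among secretory markers Csn1s1 and Csn3 were read in every member, whereas Wap was read in 4 members (1.40 CPM over all of them) and Glycam1, a milk mucin-like protein, stood at 0.081 CPM.

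**Figure D1:**
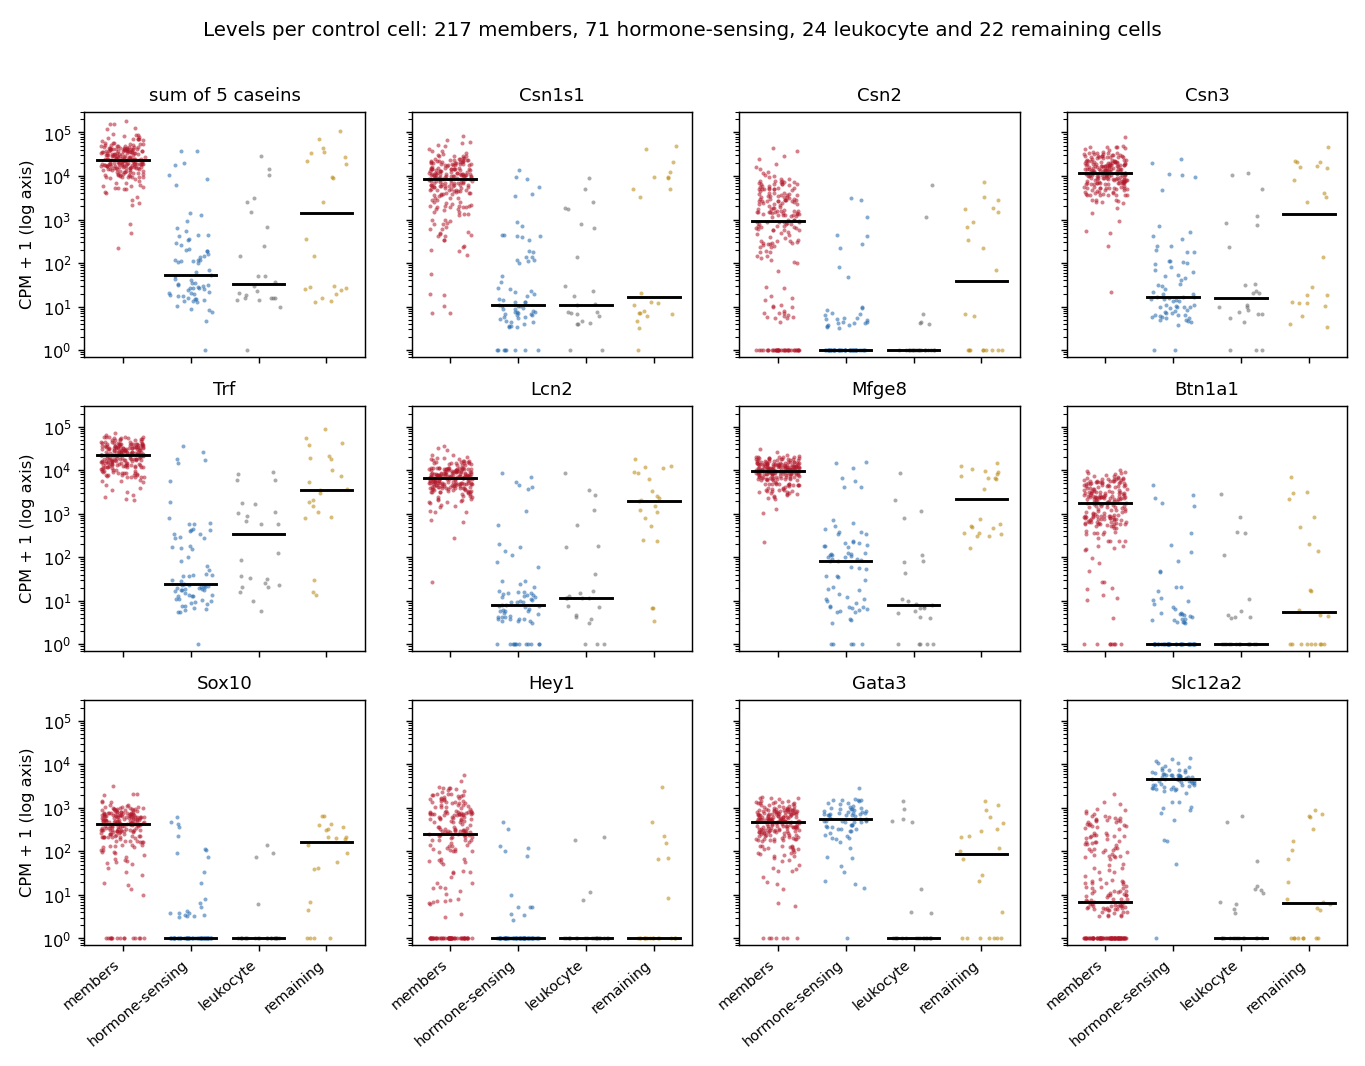
Level per control cell of the 5 caseins summed and of 11 single genes (CPM + 1, log axis), with 1 point per cell and a black bar at the median, in the members, 71 hormone-sensing cells, 24 leukocytes and 22 remaining cells. Caseins, Trf, Lcn2, Mfge8 and Btn1a1 are high in members, with some high cells in other classes too. The casein sum passes 10000 CPM in 8 of the 22 remaining cells. Gata3 has similar medians of 468 CPM in members and 567 CPM in hormone-sensing cells, and Slc12a2 is high in hormone-sensing cells.

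Milk protein genes were high in the members. Csn1s1, Csn1s2a, Csn2 and Csn3 encode the caseins, which carry calcium phosphate in milk, and lie in a cluster on chromosome 5 (GRCm38, the build called mm10: Csn1s1 chr5:87666208-87682578, Csn2 chr5:87692619-87699429, Csn1s2a chr5:87774450-87788798, Csn3 chr5:87925579-87932550, all protein-coding). Csn1s1 stood at 6.14, 8579 and 83485 CPM in the lowest, median and highest member, against 0, 10.02 and 14049.9 CPM in hormone-sensing cells. Csn3 stood at 20.6, 11921 and 77538 CPM in members, against 0, 15.7 and 25216 CPM in hormone-sensing cells. The medians lay far apart, and the ranges overlapped. Csn2, the beta casein, stood at 0, 912 and 43810.1 CPM in members and 0, 0 and 3162 CPM in hormone-sensing cells, and Csn1s2a at 0, 468 and 35441 CPM in members and 0, 0 and 939.9 CPM in hormone-sensing cells.

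Promoter sequence is shown for the casein genes because prolactin reaches them through Stat5, whose family binds the pattern TTCNNNGAA. The 250 bases before the transcript start given in the promoter table (RefSeq, GRCm38.p6) were searched for it, a start that for Csn2 lies slightly inside the outer end of the gene span printed above; the pattern is its own reverse complement, so 1 search covers both strands. Csn1s1 on the plus strand (chr5:87665958-87666207) and Csn2 on the minus strand (chr5:87699426-87699675) each held 1 match, printed in capitals within the window, 5′ to 3′ along the gene. The match covered bases -100 to -92 from that start in Csn1s1 and -93 to -85 in Csn2.
Csn1s1: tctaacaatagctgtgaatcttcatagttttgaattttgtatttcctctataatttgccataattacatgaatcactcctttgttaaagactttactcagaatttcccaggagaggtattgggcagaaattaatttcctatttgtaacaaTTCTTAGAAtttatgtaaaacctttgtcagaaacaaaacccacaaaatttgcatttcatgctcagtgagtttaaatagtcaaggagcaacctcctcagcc
Csn2: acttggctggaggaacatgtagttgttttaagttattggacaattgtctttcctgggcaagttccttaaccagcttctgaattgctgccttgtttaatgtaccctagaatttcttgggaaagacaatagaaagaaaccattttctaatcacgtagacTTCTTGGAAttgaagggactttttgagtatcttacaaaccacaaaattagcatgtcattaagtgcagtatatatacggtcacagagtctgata
Csn3 has no window in the table and was not searched. The windows of Csn1s2a, Lalba, Wap, Ltf, Lcn2, Mfge8, Kit, Elf5 and Krt8 held no match. Among all 32851 such windows 2306 held a match (7.02%), and among 27025 genes 2197 had a window with one (8.13%). A match is a description of the letters, and no binding was measured.

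Summed over each group (all reads of the gene over all reads of the group, as CPM), Csn2 stood at 3002 CPM (Poisson interval 2987 to 3018) in members and 156.8 CPM (152.5 to 161.2) in the other kept cells, a 19.1-fold ratio, and at 69.7 CPM in hormone-sensing cells, a 43.1-fold ratio. Csn1s1 was 9.78-fold, Csn3 9.38-fold and Csn1s2a 13.7-fold higher in members than in the other kept cells. Against hormone-sensing cells alone these ratios were 24.5-fold, 18.8-fold and 39.9-fold. The 22 remaining cells held caseins too, at a median of 1450 CPM for the 5 caseins summed. Lalba, the alpha-lactalbumin subunit of lactose synthase, was read in 21.2% of members (19.8% thinned), 4.23% of hormone-sensing cells (1.41% thinned) and 0% of leukocytes (0% thinned). It reached 1559 CPM in the highest member, with 62.2 CPM over all members, 7.97 CPM over the other kept cells and 0.553 CPM over hormone-sensing cells.

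A gene was counted higher or lower when log2 of the ratio of summed CPM + 1 passed 2-fold, among genes at 5 CPM or more in either group; with 1 plate this is a call by size. Of 12024 genes measured against the other kept cells 1401 were higher (11.7%) and 2542 lower (21.1%) in members, and of 11154 measured against hormone-sensing cells 2097 were higher (18.8%) and 1797 lower (16.1%). The rule itself sorted these cells, so nothing is read from these shares. They are the background for each list count within the control plate given below. All 5 measured milk protein genes were higher in both comparisons, with a median log2 ratio of 3.29 over the other kept cells, where the median of all genes was -0.14, and of 5.28 over hormone-sensing cells, where it was -0.01. When the rule asked for 3 of the 4 progenitor markers instead of 2, the ratios over the other kept cells shrank to a log2 of 0.59 for Csn1s2a and 0.56 for Lalba, with the 19 members with 2 markers then counted among the other cells.

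Casein levels ranged widely within the members. The 5 caseins together (Csn1s2b included) took 222.2, 23857 and 188369 CPM in the lowest, median and highest member. They passed 1000 CPM in 98.6% of members and 10000 CPM in 86.2%, and no member was under 100 CPM. In hormone-sensing cells the sum stood at 0, 51.3 and 37826 CPM, with 9 of 71 cells past 1000 CPM and 39 under 100 CPM. Leukocytes, which do not make milk, had a median of 32.8 CPM and a highest cell of 28491 CPM. Of the 24 leukocytes 6 passed 1000 CPM and 3 passed 10000 CPM. Of the 22 remaining cells 8 passed 10000 CPM, with a highest cell of 105741 CPM. The 22 members with most casein held 29.8% of the casein level summed over members. The 7 hormone-sensing cells with most casein held 93.1% of that group's, so the summed casein ratios over hormone-sensing cells rest on few cells of that group, while its median cell lay at 51.3 CPM.

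The 19 members with only 2 of the 4 progenitor markers had the highest casein median. Their casein sum stood at 8398, 42230 and 188369 CPM (lowest, median, highest), against 222.2, 24242 and 159285 CPM in the 63 members with 3 markers and 2133, 21081 and 78148 CPM in those with 4. Lalba was read in 9 of the 19 (47.4%), in 18 of the 63 (28.6%) and in 14.1% of those with 4. Trf had medians of 35686, 23654 and 18716 CPM in the same order. Median depth was 185052 reads in the 19, 198959 in the 63 and 236489 in those with 4 markers, so cells with fewer markers were also shallower, and the part of depth in their marker number was not tested. The ranges overlapped. Of the 19, 15 had Ltf as 1 of their 2 markers, but Ltf had medians of 28.4, 2204 and 11715 CPM in the same order. The Ltf of many of the 19 thus lay not far from the line of 10 CPM, near which a value says little.

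Secreted defence and iron-binding proteins formed the next group. Of 9 measured, 8 were higher and none lower in members than in the other kept cells (median log2 ratio 3.12), with the same counts against hormone-sensing cells (4.60). Trf, the iron carrier transferrin, stood at 2052, 22322 and 70129.7 CPM in members and 0, 23.3 and 35863 CPM in hormone-sensing cells. Every member had more Trf than the median hormone-sensing cell. Lcn2, the siderophore-binding lipocalin, stood at 26.4, 6689 and 36353 CPM in members and 0, 7.03 and 8793 CPM in hormone-sensing cells, and Wfdc18, of the whey acidic protein domain family, had a median of 1364 CPM in members.

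Summed levels of Trf were 26050.3 CPM in members, 2988 CPM in the other kept cells and 1073 CPM in hormone-sensing cells, and those of Lcn2 7985, 771 and 286.99 CPM. Cp, the copper ferroxidase ceruloplasmin, was 6.04-fold and Lbp, which binds bacterial lipopolysaccharide, 10.49-fold higher in members than in the other kept cells. Pigr, the receptor that carries immunoglobulin A into milk, was read in 27.6% of members (23.5% thinned) and 8.33% of leukocytes (8.33% thinned), and stood at 102.4 CPM in members and 16.8 CPM in the other kept cells. Spp1, osteopontin, reached 3966 CPM in its highest member but was read in only 4.61% of thinned members. Hp, haptoglobin, was the gene of the list within 2-fold: it stood at 0, 13.4 and 10614 CPM in members and 0, 854 and 5159 CPM in hormone-sensing cells, with a lower median in members although the highest member lay above every hormone-sensing cell.

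Mfge8 and Btn1a1 coat the milk fat globule. Mfge8 (lactadherin) stood at 217.6, 9817 and 29886 CPM in members, against 0, 81.02 and 15281 CPM in hormone-sensing cells, and was 11.9-fold higher in members than in the other kept cells. Btn1a1 (butyrophilin) stood at 0, 1774 and 10349 CPM in members and 0, 0 and 4499 CPM in hormone-sensing cells. Of the 18 measured genes of milk fat synthesis and secretion, 8 were higher, 4 lower and 6 within 2-fold over the other kept cells (median log2 ratio 0.23), and 10 were higher and 2 lower against hormone-sensing cells (1.46). The second median moved to -0.10 when only genes at 20 CPM or more were counted.

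The higher genes of this list included both Xdh and Plin2, which act at the fat droplet. Xdh, the oxidoreductase that binds Btn1a1 at the droplet, stood at 626 CPM in members, 83.6 CPM in the other kept cells and 25.8 CPM in hormone-sensing cells, and Plin2, a droplet coat protein, at 1035, 251.1 and 145.5 CPM. The synthesis enzymes Fasn, at 119.6, 120.6 and 144.3 CPM, and Acly, at 263.9, 273.5 and 296.1 CPM in the same groups, were within 2-fold. Scd1, a fatty acid desaturase, stood at 423 CPM in members and 147.4 CPM in the other kept cells, and came just within 2-fold under some other settings (a lowest log2 ratio of 0.92). Its relative Scd2 was lower in members, at 7.91 CPM, than in the other kept cells, at 94.3 CPM, as was Dgat2, a triglyceride synthase, at 24.5 and 159.5 CPM. Cd36, a fatty acid carrier, stood at 9.41 CPM in members, 158.4 CPM in the other kept cells and 0.184 CPM in hormone-sensing cells.

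In the prolactin to Stat5 axis 3 of 12 measured genes were higher and 3 lower in members than in the other kept cells (median log2 ratio -0.04), and 3 of 11 were higher and 3 lower against hormone-sensing cells. The shares over all genes were 11.7% higher and 21.1% lower in the first comparison, and 18.8% and 16.1% in the second. Prlr, the prolactin receptor and a rule gene, had a median of 8.72 CPM in members and 9021 CPM in hormone-sensing cells, a difference the rule helps to set. The transducers Stat5a, at 172.5 CPM in members and 201.7 CPM in the other kept cells, and Stat5b, at 139.4 and 126.3 CPM, were within 2-fold. Id2 and Nfib, factors needed for alveolar growth and milk gene expression, were higher in members, with Id2 at 455 CPM against 148.9 CPM and Nfib at 446 CPM against 114.3 CPM. Ghr, the growth hormone receptor, was also higher, at 106.2 CPM in members and 26.2 CPM in the other kept cells. Socs2, a feedback inhibitor, was lower, at 39.1 CPM in members and 172.6 CPM in the other kept cells.

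Transporters of milk precursors were split, with 3 of 11 higher and 2 lower over the other kept cells (median log2 ratio 0.31). Slc5a7, a choline transporter, was read in 40.6% of members and in 5.63% of hormone-sensing cells, and stood at 153.9 CPM in members and 10.7 CPM in the other kept cells. Thinned shares were 35.5% of members and 5.63% of hormone-sensing cells, and 4.17% of leukocytes. Slc3a2, a subunit of amino acid exchangers, stood at 879.6 CPM in members and 394 CPM in the other kept cells. Slc12a2, the sodium-potassium-chloride cotransporter, stood at 0, 6.05 and 2031 CPM in members and 0, 4518 and 14312 CPM in hormone-sensing cells, and was 30.6-fold lower in members than in the other kept cells. Aqp5, a water channel, was also lower, at 252.1 CPM in members and 1060.0 CPM in the other kept cells. Slc2a1, the glucose carrier of the lactating gland, was within 2-fold of the other kept cells, at 99.7 CPM in members and 168.2 CPM there.

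None of the 21 genes of the secretory machinery of the endoplasmic reticulum was higher in members. Against the other kept cells 3 were lower and 18 within 2-fold (median log2 ratio -0.62, with -0.14 over all genes), and against hormone-sensing cells 8 were lower (-0.72). The chaperone Hspa5 stood at 0, 631 and 8018 CPM in members and 0, 1449 and 8394 CPM in hormone-sensing cells. The disulfide isomerases Pdia4, at 173.2 CPM in members and 409.8 CPM in the other kept cells, and Pdia6, at 172.4 and 458 CPM, were lower, as was Sdf2l1, a chaperone cofactor, at 13.5 and 83.3 CPM. Pdia4 came within 2-fold in well columns 13 to 24, at a log2 ratio of -0.61. Xbp1, the transcription factor of the secretory machinery, was within 2-fold, at 679 CPM in members and 879 CPM in the other kept cells.

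Luminal progenitor genes that the rule did not use were mostly higher in members: 9 of 14 were higher and 1 lower than in the other kept cells (median log2 ratio 2.02), and 11 higher and 1 lower against hormone-sensing cells (3.02). Among transcription factors, Sox10 stood at 0, 426 and 3141 CPM in members and 0, 0 and 623 CPM in hormone-sensing cells, and Ehf, an Ets factor, at 0, 727 and 4124 CPM in members and 0, 0 and 1054 CPM in hormone-sensing cells. Both medians were well apart. Foxc1 was read in 24.4% of thinned members and 5.63% of thinned hormone-sensing cells, and stood at 30.6 CPM in members and 8.98 CPM in the other kept cells. Elf3, another Ets factor of epithelia, was within 2-fold, at 325.02 CPM in members and 207.3 CPM in the other kept cells.

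Among surface proteins, Plet1 stood at 0, 1526 and 4412 CPM in members and 0, 192.9 and 2885 CPM in hormone-sensing cells, and Cd14, the lipopolysaccharide co-receptor, at 0, 585 and 5723 CPM in members and 0, 0 and 4380.2 CPM in hormone-sensing cells. Tspan8 was 4.62-fold and Cd55, a complement inhibitor, 3.66-fold higher in members than in the other kept cells. Itga2, an integrin subunit of luminal progenitors, was 15.99-fold higher but was read in only 17.97% of thinned members. Itgb3 was read in 6.45% of thinned members, and was within 2-fold of the other kept cells at 16.6 CPM in members and 13.4 CPM there. Slpi, a protease inhibitor, was the gene of the list that was lower, at 8.64 CPM in members, 308.7 CPM in the other kept cells and 0.322 CPM in hormone-sensing cells.

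Several genes with the largest ratios to the other kept cells were not in any list and were read in fewer members. Gabrp, a GABA receptor subunit, was read in 29.03% of members (27.2% thinned) and 4.17% of leukocytes (0% thinned), and stood at 123.3 CPM in members and 0.379 CPM in the other kept cells (12 reads, interval 0.196 to 0.663 CPM). Alox12e, an epidermal-type lipoxygenase, was read in 45.6% of members (37.8% thinned) and 20.8% of leukocytes (4.17% thinned), and reached 14623 CPM in the highest member, with a median of 0. The glucose cotransporter Slc5a1 was 29.5-fold, the integrin subunit Itga8 23.4-fold, the matrix protein Tnc 19.3-fold and the retinoic acid binding protein Crabp2 20.6-fold higher in members. Others were read in most members. Atp6v1b1, a subunit of the proton pump, had a median of 395 CPM in members and was read in 90.3% of them, against 15.5% of hormone-sensing cells, after thinning. Kcnk5, a potassium channel, had a median of 286.8 CPM and Muc4, a membrane mucin, of 118.8 CPM in members.

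Several genes named by their ratio to hormone-sensing cells were also read in other kept cells. Bcl2, which blocks apoptosis, stood at 163.6 CPM in members, 112.8 CPM in all other kept cells and 1.29 CPM in hormone-sensing cells. Mme, the peptidase CD10, stood at 237.1, 64.6 and 2.58 CPM in the same groups, Acsl1, which activates fatty acids, at 106.8, 11.04 and 1.47 CPM, and the death receptor Fas at 120.1, 23.2 and 1.98 CPM. Each of these had a median of 0 in members and was read in 29.95% to 39.6% of thinned members.

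**Figure D2:**
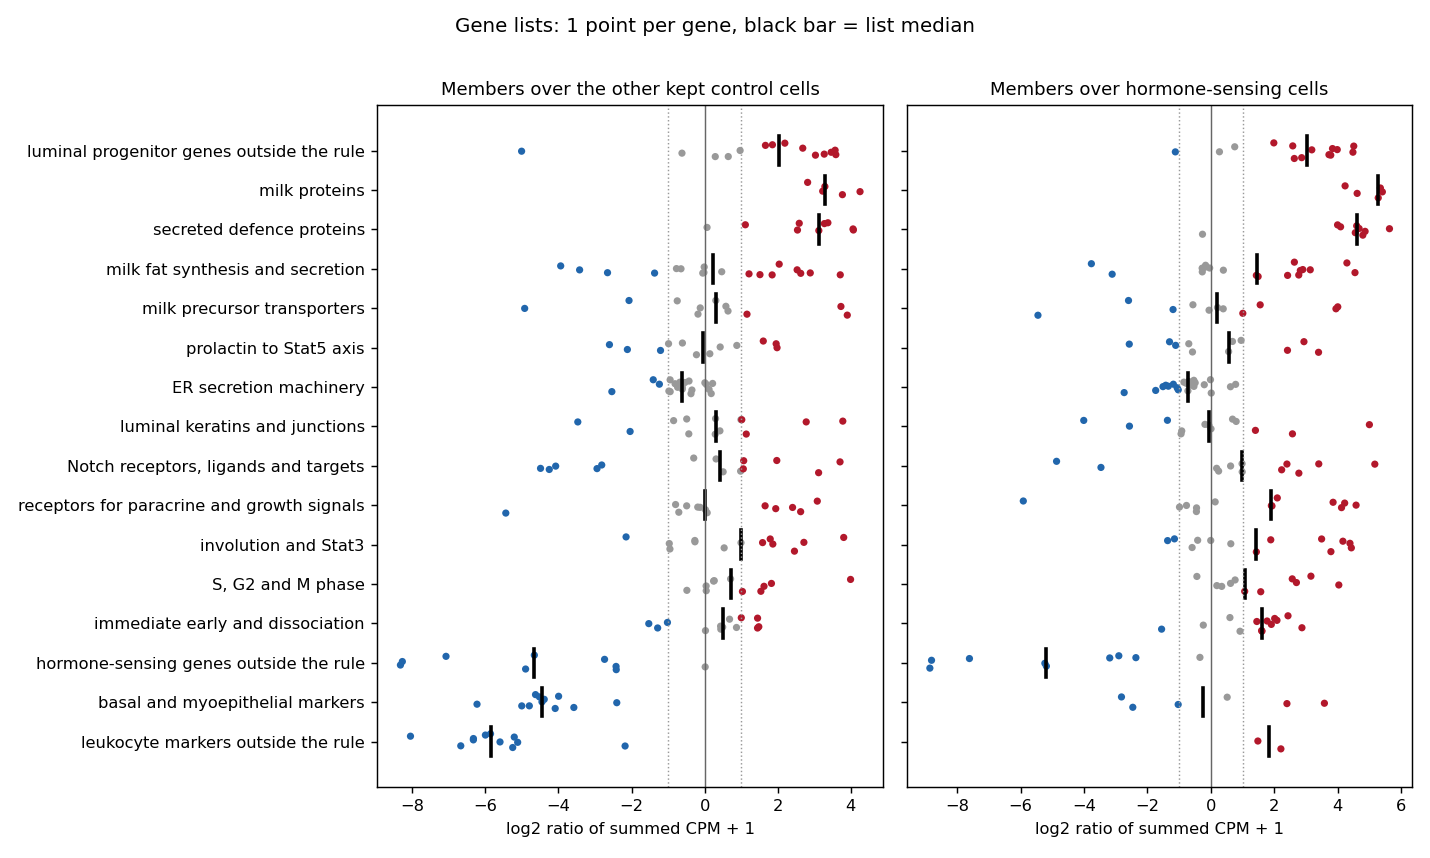
Log2 ratio of summed CPM + 1 for each measured gene of 16 lists, in members over the other kept control cells and in members over hormone-sensing cells; red points are at least 2-fold higher in members, blue points at least 2-fold lower and grey points between, and the black bar is the list median. Milk proteins lie on the higher side in both panels (medians 3.29 and 5.28), the secretory machinery near or below 0, and hormone-sensing genes on the lower side (medians -4.66 and -5.19).

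Notch signalling, in which a ligand on one cell leads to cleavage of a receptor on the next, whose intracellular domain turns on Hes and Hey genes, is known to act in luminal fate. Of 14 measured Notch genes 5 were higher and 5 lower in members than in the other kept cells (median log2 ratio 0.41), and 5 of 12 were higher and 2 lower against hormone-sensing cells (0.99). Among all genes 11.7% were higher and 21.1% lower in the first comparison, and 18.8% and 16.1% in the second. The receptor Notch1 stood at 0, 194.3 and 1780.4 CPM in members and 0, 15.99 and 820.3 CPM in hormone-sensing cells, and was 3.97-fold higher in members than in the other kept cells. The target Hey1 stood at 0, 243.9 and 5618 CPM in members and 0, 0 and 482 CPM in hormone-sensing cells, and was 13.3-fold higher in members than in the other kept cells. It was read in 75.1% of members, 18.3% of hormone-sensing cells and 16.7% of leukocytes.

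Hes1, another target, stood at 0, 80.8 and 2062 CPM in members and 0, 70.3 and 770.5 CPM in hormone-sensing cells; summed, it was 2.11-fold higher in members than in the other kept cells, and its log2 ratio went as low as 0.83 under the other settings. Nrarp, a target that feeds back on Notch, stood at 33.5 CPM in members and 2.97 CPM in the other kept cells, and Numb, an inhibitor of Notch, at 236.98 CPM in members and 113.3 CPM in the other kept cells. Lfng, which glycosylates the receptors, was 1 of the 5 lower genes, with 0.0203 CPM in members and 18.4 CPM in the other kept cells. The other lower genes of this list are not named here.

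Among 13 receptors for growth and paracrine signals 5 were higher and 1 lower than in the other kept cells (median log2 ratio 0.02), and 7 higher and 1 lower against hormone-sensing cells (1.91). Met, the hepatocyte growth factor receptor, stood at 0, 166.2 and 4121 CPM in members and 0, 0 and 633 CPM in hormone-sensing cells. Igf1r stood at 130.9 CPM and Egfr at 81.3 CPM in members, against 20.4 CPM for Igf1r and 14.5 CPM for Egfr in the other kept cells. Fgfr2, a receptor for fibroblast growth factors, was the lower one, with 0, 0 and 821 CPM in members and 0, 989 and 3429.6 CPM in hormone-sensing cells.

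Genes known from involution, the return of the gland after weaning that runs through Stat3, were partly high in members. Of 13 measured 6 were higher and 1 lower than in the other kept cells (median log2 ratio 0.99). Igfbp5, which binds insulin-like growth factor, stood at 0, 2715 and 20051 CPM in members and at 175.1 CPM summed over hormone-sensing cells, a 21.05-fold ratio of summed levels. Cebpd stood at 0, 255.6 and 3739 CPM in members and 0, 0 and 563 CPM in hormone-sensing cells, and Tgfb3 at 0, 344.2 and 4252 CPM in members and 0, 0 and 1185 CPM in hormone-sensing cells. Clu, a secreted chaperone, was 3.64-fold higher in members than in the other kept cells, whereas Stat3 itself, at 494 CPM in members and 340.8 CPM in the other kept cells, was within 2-fold. These factors also act outside involution, and the labels give no time after weaning.

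Of 11 measured genes of S, G2 and M phase 5 were higher and none lower in members than in the other kept cells (median log2 ratio 0.71). Over all genes 11.7% were higher and 21.1% lower. Levels of the list were low. It holds 18 genes, and those not measured were under 5 CPM in both groups. In members Top2a stood at 0.993 CPM, Ccnb1 at 0.405 CPM and Birc5 at 0.770 CPM. Mcm6, a replication helicase subunit, stood at 124.7 CPM in members and 75.9 CPM in the other kept cells. Mki67 stood at 5.88 CPM in members and 8.63 CPM there, so it lay on the lower side. Both were within 2-fold and are not among the 5. Immediate early genes, which tissue dissociation also induces, had 4 of 13 higher and 3 lower over the other kept cells (median 0.49), and 9 higher and 1 lower against hormone-sensing cells (1.61). Fos stood at 4.46, 9782 and 35106 CPM in members and 0, 1744 and 28631 CPM in hormone-sensing cells, and Egr1 at 2134 CPM in members and 290.3 CPM in hormone-sensing cells summed. The part of dissociation in these levels was not tested.

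Of the hormone-sensing genes outside the rule, 8 of 9 were lower and none higher in members, with median log2 ratios of -4.66 over the other kept cells and -5.19 over hormone-sensing cells. The gene within 2-fold was Gata3, a luminal master factor, which stood at 0, 468 and 1822 CPM in members and 0, 567 and 2905 CPM in hormone-sensing cells. Cxcl15, a chemokine, stood at 0, 0 and 872 CPM in members and 0, 1312 and 5936 CPM in hormone-sensing cells, and Prom1, which encodes CD133, at 0, 0 and 1463 CPM in members and 0, 290.7 and 2148 CPM in hormone-sensing cells. Tbx3, a transcription factor of hormone-sensing cells, was 7.07-fold and Ly6a, which encodes Sca-1, 31.5-fold lower in members than in the other kept cells.

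Among the genes named by rank as lowest were Ido1, which degrades tryptophan, at 1.76 CPM in members and 1967 CPM in the other kept cells, Col8a1, a collagen, at 0.547 and 476 CPM, and Olfm4, an olfactomedin, at 1.24 and 913 CPM. Cdo1, a cysteine dioxygenase, stood at 0, 0 and 240.6 CPM in members and 0, 1031 and 4486 CPM in hormone-sensing cells, and Ptn, the growth factor pleiotrophin, at 0, 0 and 275.2 CPM in members and 0, 1301 and 4222 CPM in hormone-sensing cells. Tph1, the serotonin-making hydroxylase, reached 192.5 CPM in its highest member and 12224 CPM in its highest hormone-sensing cell. Single members had reads of these genes, such as 240.6 CPM of Cdo1 and 275.2 CPM of Ptn in the highest member of each. The median member had none.

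Luminal keratins and junction genes had 4 of 13 higher and 2 lower than in the other kept cells (median log2 ratio 0.30). Krt18, the partner of Krt8, stood at 2279 CPM in members, 3077 CPM in the other kept cells and 4306 CPM in hormone-sensing cells, and Krt7 at 125.2, 1397 and 2030.4 CPM. Against the other kept cells Krt7 was lower by more than 2-fold and Krt18 was not. Muc1, a membrane mucin, stood at 0, 778 and 3257 CPM in members and 0, 53.4 and 1576 CPM in hormone-sensing cells. Of the tight junction genes, Cldn1 was higher, at 67.9 CPM in members and 4.02 CPM in the other kept cells, and Cldn4 lower, at 109.6 CPM in members and 453 CPM in the other kept cells.

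Levels per kilobase of transcript are the scale on which genes of a full-length library can be set beside each other. Lengths are those of the longest principal transcript in GENCODE M21. Names without a length were not ranked, whatever their level. Among the 18304 names with a length and a read in members, Trf led with 10132 CPM per kb. It was followed by Csn3 at 9377, Lcn2 at 8727, Csn1s1 at 8181, Fos at 5503, Wfdc18 at 5327, Ltf at 5187, Mfge8 at 5051 and Itm2b at 4628 CPM per kb. Csn2 came at 2259 and Csn1s2a at 1596 CPM per kb, against 367.1 CPM per kb for Krt8. Caseins of the same cluster differed in level, with Csn3 above Csn2. The order depends on the length used: over the union of all annotated exons, which for the caseins takes in retained introns, Trf stood at 7846, Csn3 at 3604, Csn1s1 at 1848 and Csn2 at 434 CPM per kb, and Fos and Ltf passed Csn3. No error over samples can be given for this order.

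RNA of other cell types was low in members. Over 11 leukocyte genes outside the rule, the summed level per member had a median of 0 and a maximum of 778 CPM, with 20 members (9.22%) at 100 CPM or more, and was 28.4 CPM over all members against 12467 CPM over leukocytes. Over 11 basal genes the median was 0 and the maximum 1722 CPM, with 54 members (24.9%) at 100 CPM or more, and 78.4 CPM over all members against 9223 CPM over the 22 remaining cells. Of that basal sum over members, Acta2 held 37.5 CPM and Cnn1 18.7 CPM, while Krt5 stood at 3.22 CPM and Krt14 at 0.547 CPM. Fibroblast genes summed to 20.2 CPM over members, of which Pdgfra alone held 18.1 CPM. Endothelial genes summed to 6.47 CPM and adipocyte genes to 2.88 CPM over members, and the 3 red blood cell genes were at 0.

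Members differed widely among themselves in some genes and little in others. Among 1979 genes with a mean of 100 CPM or more and read in at least 20% of members, the median coefficient of variation over cells was 1.55. Gpx3, a secreted glutathione peroxidase, varied most at 4.32, with a median of 4.44 CPM and a highest member of 7970 CPM, and Alox12e stood at 2.95. At the even end were the translation factor Eef1a1 at 0.31, Itm2b and the surface protein gene Ly6e at 0.40, Epcam at 0.47, Krt18 at 0.48 and Mfge8 at 0.49. The variation of sparse genes includes reads missed at this depth.

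Across the members, after thinning to 50000 reads, the Spearman correlation with the casein sum is given as a description over all member cells; the points share a plate, a depth and a total of reads in which the caseins themselves count. Over 3411 genes its median was -0.01, with 10 genes at 0.3 or above and 23 at -0.3 or below. The genes most like the caseins were Igfbp5 and Trf at 0.40, Cst3, a secreted protease inhibitor, at 0.39, Btn1a1 at 0.37, Cyb5a at 0.35 and Cck and Dbi at 0.34. Ltf, a rule gene, lay at the opposite end with -0.50. It was negative in both parts of the plate, at -0.62 in well columns 1 to 12 and -0.39 in columns 13 to 24. S100a6, a calcium-binding protein, and Ahnak, a large scaffold protein, stood at -0.46, and Anxa1 and Gas6 at -0.39.

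The milk protein genes did not all vary in one direction within the members. Csn1s1 went with Csn2 at 0.49 and with Csn3 at 0.48, whereas Ltf went with Csn1s1 at -0.43, with Csn3 at -0.45 and with Mfge8 at 0.33. Ltf is a rule gene, so the rule had a part in which cells with little Ltf became members, and its effect on these values was not tested. Kit had no gene beyond 0.3 in either direction, and stood at -0.21 with the casein sum and -0.02 with Elf5. After thinning, Kit and Csn1s1 were read together in 90.3% of members, Kit and Csn2 in 71.9%, and Csn1s1 and Csn3 in 98.2%. Each alone, Kit was read in 92.2% of members, Csn1s1 in 98.2%, Csn2 in 78.3% and Csn3 in 100%. The shares read together are about what these single shares give, and Kit is a rule gene, so nothing more is read from them. A single casein read says little here, as Csn1s1 was also read in 41.7% of thinned leukocytes, against 98.2% of thinned members.

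**Figure D3:**
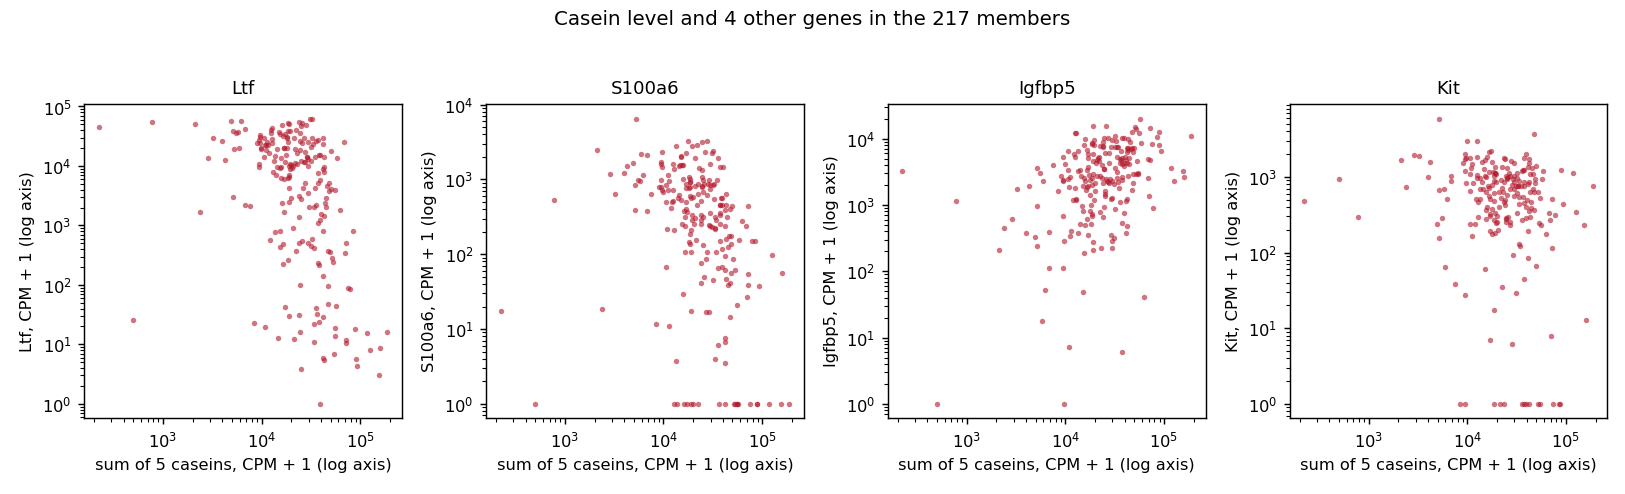
Level of Ltf, S100a6, Igfbp5 and Kit against the sum of 5 caseins in each member (CPM + 1, log axes on both sides, 1 point per cell). Ltf and S100a6 tend to be lower in members with more casein (Spearman -0.50 and -0.46 on thinned counts), Igfbp5 higher (0.40), and Kit shows little relation (-0.21).

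The same rule on the N1ICD-EGFP plate chose 54.77% of kept cells (interval 48.8% to 60.7%), against 64.97% on the control plate. By blocks in the same order these were 41 of 68, 35 of 76, 36 of 70 and 43 of 69 kept cells. They had 51736 to 615615 reads (median 375872), against 53712 to 552106 (median 220626) in control members, and a median of 2317 genes after thinning, against 2979. With 1 plate each, the genotype cannot be told apart from the plate or from the colour sorted on, and the rule picked both sets on their own levels. Of 10970 genes measured, 1124 were at least 2-fold higher (10.2%) and 876 lower (7.99%) in N1ICD-EGFP cells, with a median log2 ratio of 0.11 over all genes. Median-of-ratios scaling shifted every ratio down by 0.10 and gave 938 higher and 1030 lower genes.

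Milk genes were lower in the N1ICD-EGFP cells. All 5 measured milk protein genes were at least 2-fold lower, with a median log2 ratio of -2.37 (-2.48 by median-of-ratios scaling). The casein sum stood at 0, 2770 and 42006 CPM in the lowest, median and highest N1ICD-EGFP cell, against 222.2, 23857 and 188369 CPM in control members. It passed 10000 CPM in 38 N1ICD-EGFP cells (24.5%) and in 86.2% of control members, and 48 N1ICD-EGFP cells (30.97%) but no control member were under 100 CPM. The ranges overlapped.

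Single milk genes had the same direction. Csn1s1 stood at 0, 389.6 and 23382 CPM in N1ICD-EGFP cells and 6.14, 8579 and 83485 CPM in control members, a 5.18-fold ratio of the summed levels. Csn3 was 4.27-fold, Csn2 3.34-fold and Csn1s2a 10.1-fold lower in N1ICD-EGFP cells, and Lalba stood at 1.24 CPM in N1ICD-EGFP cells and 62.2 CPM in control members. Of 18 milk fat genes none was higher and 10 were lower (median log2 ratio -1.03), among them Btn1a1 at 768 CPM in N1ICD-EGFP cells and 2438 CPM in control members. Slc5a7 was read in 1 N1ICD-EGFP cell and in 88 control members (40.6%).

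Progenitor genes outside the rule had no such direction, with 2 of 15 higher, 2 lower and 11 within 2-fold in N1ICD-EGFP cells (median log2 ratio -0.15). Of the rule genes, Kit stood at 953 CPM in N1ICD-EGFP cells and 749 CPM in control members, Elf5 at 195.6 and 246.6 CPM, Aldh1a3 at 463 and 1012 CPM (a log2 ratio as small as -0.84 under another setting) and Ltf at 2698 and 14228 CPM. Secreted defence genes were mostly within 2-fold (7 of 9), with Trf at 13360.4 CPM in N1ICD-EGFP cells and 26050.3 CPM in control members. Hp was the higher one, with 0, 3434 and 25715 CPM in N1ICD-EGFP cells and 0, 13.4 and 10614 CPM in control members. Its median lay far higher in N1ICD-EGFP cells, over ranges that overlapped.

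Of 11 measured Notch genes 4 were higher and 2 lower in N1ICD-EGFP cells (median log2 ratio 0.34). Hes1 stood at 0, 458.8 and 3773 CPM in N1ICD-EGFP cells and 0, 80.8 and 2062 CPM in control members, and its summed level was 2.69-fold higher. Hey1 went the other way, with 0, 0 and 4417 CPM in N1ICD-EGFP cells and 0, 243.9 and 5618 CPM in control members; summed, it was 2.03-fold lower, close to the 2-fold line, and came within it under 6 of the other settings (log2 ratios of -1.28 to -0.77 over all of them). Notch1 stood at 293.95 CPM in N1ICD-EGFP cells and 279.1 CPM in control members, a level in which reads of the transgene and of the gene itself are not separated. Gt(ROSA)26Sor, the transcript of the locus that holds both reporters, stood at 12.8 CPM in N1ICD-EGFP cells and 108.02 CPM in control members.

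Among the genes with the largest ratios, Lect1, the cartilage growth regulator chondromodulin, was read in 69 N1ICD-EGFP cells (44.5%) and 4 control members (1.84%), and stood at 692 CPM in N1ICD-EGFP cells and 1.22 CPM in control members. Alox15, a lipoxygenase, was 22.6-fold higher, at 1516 and 67.1 CPM, and Krt23, a keratin, stood at 143.5 CPM in N1ICD-EGFP cells and 5.53 CPM in control members. Cck, the peptide hormone that went with the caseins across control members, was 4.38-fold lower, at 113.2 CPM in N1ICD-EGFP cells and 496 CPM in control members. Igfbp5 was 2.88-fold lower, at 1282 CPM in N1ICD-EGFP cells and 3686 CPM in control members. Leukocyte genes outside the rule summed to 57.7 CPM over N1ICD-EGFP cells and 28.4 CPM over control members, and basal genes to 245.5 and 78.4 CPM, and their part in the ratios was not tested.

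**Figure D4:**
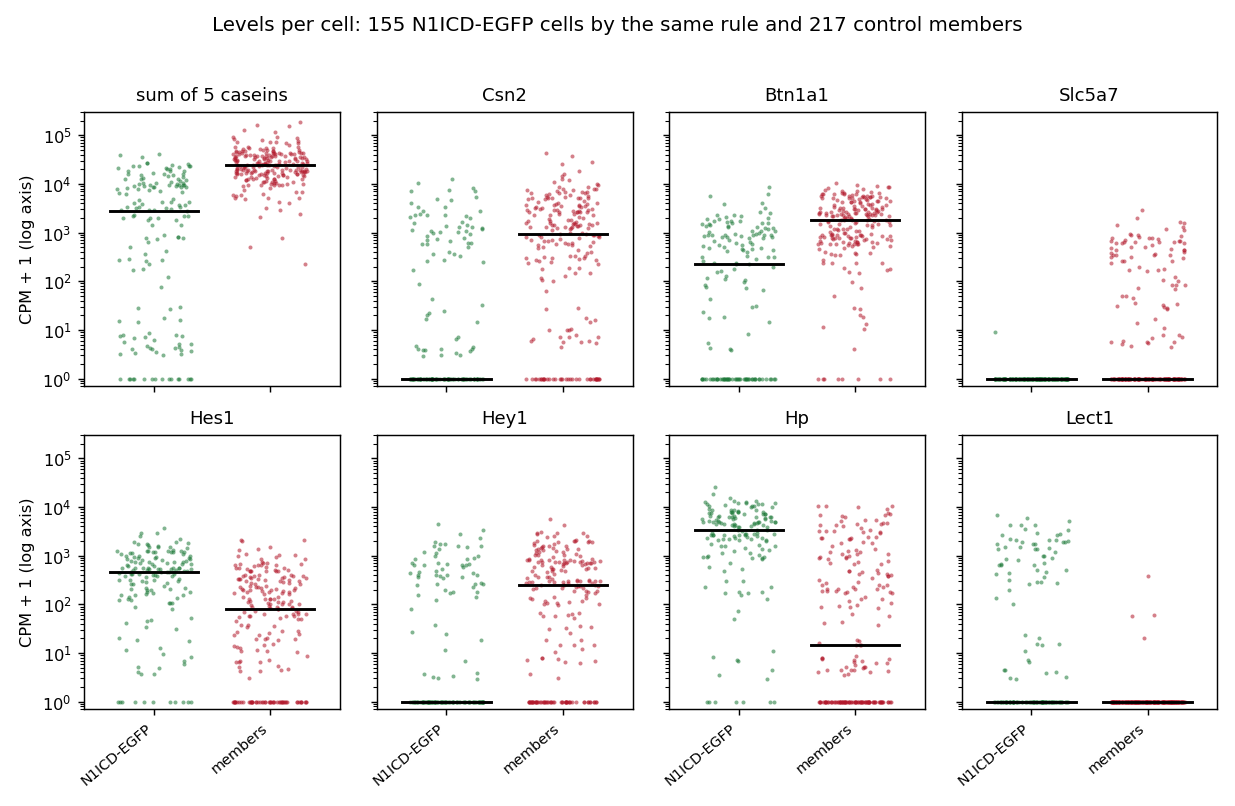
Level per cell of the 5 caseins summed and of 7 single genes (CPM + 1, log axis), with 1 point per cell and a black bar at the median, in N1ICD-EGFP cells chosen by the same rule and control members. Casein medians are 2770 CPM in N1ICD-EGFP cells and 23857 CPM in control members, Hp and Hes1 have higher medians in N1ICD-EGFP cells, and Slc5a7 has reads in 1 N1ICD-EGFP cell.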

How the data were processed

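The authors deposited raw read counts per gene for every well of 2 plates, 1 table a plate. Reads were aligned with STAR to mm10, per the submitters' processing notes. No version, counting tool, annotation or strand setting is given in the sources used here, so overlapping and antisense genes may share reads. Wells were joined to samples by plate and well name, with 0 unused sample columns. The tables have 24490 rows; 492 repeated names were summed, which left 23997 names, with no mitochondrial genes. The row for eGFP was left out of depths and ratios.

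Counts were scaled to counts per 1000000 (CPM) in each cell, and members were chosen with the rule given in the report. Group levels are summed reads of a gene over summed reads of the group. A ratio is log2 of summed CPM + 1 (pseudocount 1) over genes at 5 CPM or more in either group, and counts as higher or lower from 2-fold; fold values are ratios of summed CPM without the pseudocount. For fold values alone, a group with no read of a gene was set to 3 counts. Read shares and correlations were also taken with every cell thinned to 50000 reads. No count model was fitted, since each group is 1 plate. No doublet caller was run, because 1 cell was sorted per well; an alternative leaves out cells whose gene number exceeds the plate median by 3 median absolute deviations. Intervals are 95% Poisson or Clopper-Pearson intervals.

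Named genes are the 14 highest and 14 lowest log2 ratios in each comparison within the control plate, and 8 and 8 between plates, where the higher group had 20 CPM and reads in 20% of its cells. Within the plate they also kept their direction in both groups of well columns. Added are the 17 rule genes, up to 4 genes per list and direction, and the caseins, Wap, Lalba, Notch1, Hes1 and Hey1. The genes with the highest and lowest correlation with the caseins and the most variable genes follow written ranks; other list genes and the most even genes were picked after their values were seen. There were 21 lists with 254 genes, 2 of which are not among the names used here. The members and the lists were chosen with earlier results of these data known. There were 17 alternative settings. Gene positions and promoters are from RefSeq (GRCm38.p6), matched by symbol, and lengths from GENCODE M21 were found for 22669 names. Levels per kilobase use the longest principal transcript, or the longest basic one where none is principal; the union of all exons is an alternative, and both were chosen after the values were seen. Scripts used Python 3.11.15, numpy 2.4.6, pandas 2.3.3, scipy 1.17.1 and matplotlib 3.10.9, and were tested on simulated data.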

Additional observations from a re-analysis of the deposited data

Results flagged for a closer look

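The row for eGFP, which the comparisons leave out, held 45.6 CPM over the N1ICD-EGFP cells chosen by the same rule, with reads in 73 of them (47.1%) and 2532 reads in all. Over the control members, which carry tdTomato and no EGFP, it held 1.09 CPM, with reads in 46 cells (21.2%), 54 reads in all and at most 2 in a cell. It is listed here as a signal in data outside the main measurement.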

How the results depend on the processing

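The share of members was 59.3% of kept control cells when 3 of 4 progenitor markers were asked for, 72.8% without cells with many genes and 70.4% in well columns 13 to 24. Of the named genes at least 2-fold apart, 97 (88.99%) stayed so under all 17 settings for members over the other kept cells. None turned there. Over hormone-sensing cells 95 (87.2%) stayed so, and between plates 37 of 55. Part of this was set beforehand, as the named genes take in the 17 rule genes. Within the plate the ranked genes were also picked for keeping their direction in both groups of well columns, which are among the settings. Of the list medians at least 2-fold apart, 10 of 10, 8 of 12 and 1 of 6 (the milk proteins) stayed so in the same order of comparisons. With genes at 20 CPM or more alone, 1553 genes were lower than in the other kept cells, 1372 were higher than in hormone-sensing cells, and between plates 641 were higher and 464 lower. Between plates there were 1692 higher and 1703 lower at 1 CPM, 736 and 556 with pseudocount 5, and 1463 lower in columns 1 to 12 and 1336 in columns 13 to 24. Log2 ratios that turned were, between plates in columns 1 to 12, Cd74 (-1.36), H2-Eb1 (-0.37), Fgfr2 (0.034) and Coro1a (-1.69); over hormone-sensing cells in columns 13 to 24, Arhgdib (-0.83) and Coro1a (-0.093); the median of basal genes between plates at a marker level of 5 CPM (-0.77), with the rule applied after thinning (-1.18) and at 1 CPM (-0.011); and that of milk fat genes over hormone-sensing cells at 20 CPM (-0.10). The cause was not tested. The number of members was not set beside that of a part of the plate. No paired analysis was possible because each group is 1 plate. Genes of few reads per cell are limited by depth: a gene without a read in a member is not shown to be absent.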

Other observations

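Genes of MHC class II, which present antigen and are high in antigen-presenting leukocytes, were at low levels in both sets of progenitor and alveolar cells. Of 5 measured, 4 were at least 2-fold higher and none lower in N1ICD-EGFP cells than in control members, with a median log2 ratio of 1.57. Among all genes measured between the plates 10.2% were higher and 7.99% lower, with a median of 0.11. The ratio of this list lay between 0.68 and 2.65 over the other settings, and was under 2-fold in 2 of them. Cd74, the invariant chain, stood at 54.8 CPM in N1ICD-EGFP cells and 15.996 CPM in control members, and had a read in 21.3% and 14.3% of thinned cells. In well columns 1 to 12 alone Cd74 turned, with a log2 ratio of -1.36, as did H2-Eb1, one of the other genes counted as higher, with -0.37. Leukocyte genes outside the rule also had 3 of 4 measured genes higher in N1ICD-EGFP cells, with a median log2 ratio of 1.25. The part of leukocyte RNA in the MHC class II values was not tested.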
